A study of Mus musculus with 46 samples.

Results

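The genes described here were near silent in striatal glial progenitor cells of 12-week-old wild-type mice of the R6/2 line and were expressed in the same sorted population of R6/2 mice of that age, a model of Huntington disease. They were chosen from measured values. A protein-coding gene was taken when its mean was below 0.5 CPM in the 7 wild-type pools of the R6/2 line at 12 weeks and at least 2 CPM in the 7 R6/2 pools of that age. CPM is the expected count of a gene divided by the sum of its library and multiplied by 1000000. Genes whose symbols start with Kcn, Gria, Grik, Grin, Gabr, Oas, Ifi or Gbp were left out, which removed Kcnj3, Kcnh8 and Kcnj9. The rule gave 125 of 21967 protein-coding genes in a table of 53801 genes, and 9424 protein-coding genes lay below 0.5 CPM in the 12-week wild types. Of the 125, 69 had a mean below 0.5 CPM in all 4 wild-type groups of the study, and the others reached it in wild types of another age or line. Since the 12-week R6/2 contrast chose the genes, its values are given below as a description without a test. The tests are those of R6/2 at 6 weeks and of zQ175 at 12 weeks and 1 year.

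Glial progenitors were isolated from mice whose PDGFRA-expressing cells carry EGFP, by sorting EGFP-positive, DAPI-excluding cells from dissociated striatum after the subventricular zone had been cut away. R6/2 mice carry a transgene with the first exon of human huntingtin and an expanded CAG repeat, driven by the human huntingtin promoter, in addition to their own intact Htt genes. zQ175 mice carry the expanded repeat in their own Htt gene. The labels do not say how many zQ175 alleles the mice had. All groups, wild-type littermates included, carried the EGFP reporter. The R6/2 line gave 6 R6/2 and 5 wild-type pools at 6 weeks and 7 and 7 pools at 12 weeks. The zQ175 line gave 6 zQ175 and 6 wild-type pools at 12 weeks and 5 and 4 pools at 1 year. Each of the 46 libraries is a pool of littermates of 1 genotype, so the spread between libraries is that between pools of different mice.

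Most genes of the genome are unused in any given cell type. Their promoters are held inactive by missing activators, by Polycomb complexes that modify histones, by DNA methylation and by repressors such as REST, which silences neuronal genes outside neurons. Oligodendrocyte progenitors are dividing glia of the adult striatum that can form new myelin, and they express a narrow set of lineage genes under factors such as Olig2 and Sox10. In sorted bulk RNA a gene at a low level can come from all cells or from a few, and fewer cells of a type and less RNA per cell cannot be told apart.

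Total expected counts were 23338185 to 49166260 per library, so that a level of 0.5 CPM rests on few reads in any pool. TMM scaling, which corrects for a few abundant genes taking up a library, lowered R6/2 relative to wild type by 0.33 on the log2 scale at 12 weeks, by 0.23 at 6 weeks and by 0.21 in zQ175 at 1 year. On TMM-scaled CPM the rule took 87 genes, all 87 among the 125. The progenitor receptor Pdgfra had 26.5 to 111 CPM in the 12-week R6/2 pools and 42.4 to 99.9 in their wild types. At 6 weeks it had 23.8 to 76.9 CPM in R6/2 and 29.2 to 92.0 in wild types. It was lower in most pools of the zQ175 line. At 12 weeks these had 3.6 to 14.0 CPM in zQ175 and 0.397 to 23.9 in wild types. At 1 year they had 4.69 to 102 CPM in zQ175 and 0.294 to 14.7 in wild types. Neuronal markers differed among themselves. The nuclear protein Rbfox3 was at or below 0.408 CPM in every pool, whereas the RNA-binding protein Elavl4 had 12.7 to 22.5 CPM in the 12-week R6/2 pools and 0.565 to 1.72 in their wild types. Slc5a7, the choline transporter of cholinergic neurons, had 3.05 to 14.1 against 0.257 to 1.65 CPM. The part of such cells in the levels of the 125 genes was not tested. Htt, the gene altered in zQ175, was lower in zQ175 at 12 weeks (4.78 ± 1.81 against 11.3 ± 2.22 CPM, SD, n = 6 and 6, edgeR quasi-likelihood test with Benjamini-Hochberg adjustment, adjusted p = 0.0412). The labels name no sequencing batch, and where libraries of an age or line were run together that batch cannot be told apart from the age or line.

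Promoters of 3 genes on which the results turn are shown first, 250 bases before to 50 after the start of the RefSeq transcript on GRCm38.p6, read 5′ to 3′ on the gene's strand, with each CG in capitals. Gm12695 is the predicted gene in which the R6/2 transgene insertion has been reported. Reln encodes a secreted glycoprotein of cortical layering, and Nsun7 a protein of the NOL1/NOP2/Sun family of RNA methyltransferases. The windows lie at chr4:96786701-96787000 on the minus strand for Gm12695, at chr5:22344656-22344955 on the minus strand for Reln and at chr5:66259648-66259947 on the plus strand for Nsun7. The RefSeq start used for Gm12695 lies 1565 bases upstream of the start of the annotated gene in GENCODE M21.
Gm12695: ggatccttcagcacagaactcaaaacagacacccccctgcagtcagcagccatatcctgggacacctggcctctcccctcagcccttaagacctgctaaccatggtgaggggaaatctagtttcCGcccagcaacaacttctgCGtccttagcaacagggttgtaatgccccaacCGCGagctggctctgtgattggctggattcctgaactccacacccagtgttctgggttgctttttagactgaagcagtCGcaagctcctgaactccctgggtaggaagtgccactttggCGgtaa
Reln: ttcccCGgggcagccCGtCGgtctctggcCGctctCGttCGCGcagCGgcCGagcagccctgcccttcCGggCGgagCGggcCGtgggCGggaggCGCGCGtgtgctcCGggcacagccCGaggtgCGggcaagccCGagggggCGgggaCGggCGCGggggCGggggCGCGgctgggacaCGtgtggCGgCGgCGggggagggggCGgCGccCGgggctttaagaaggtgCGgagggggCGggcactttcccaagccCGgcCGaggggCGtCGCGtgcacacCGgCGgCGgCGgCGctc
Nsun7: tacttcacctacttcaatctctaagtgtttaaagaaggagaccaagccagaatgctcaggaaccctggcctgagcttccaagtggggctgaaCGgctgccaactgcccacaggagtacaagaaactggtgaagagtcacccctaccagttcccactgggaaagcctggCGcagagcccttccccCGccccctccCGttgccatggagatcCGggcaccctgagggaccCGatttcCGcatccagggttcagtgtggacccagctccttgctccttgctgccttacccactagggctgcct
The Reln window holds 47 CG, whereas those of Gm12695 and Nsun7 hold 6 and 7. RefSeq windows were found for 86 of the 125 genes and for 16507 protein-coding genes in all. Among the 86 the number of CG ranged from 1 to 55 with a median of 15, against a median of 14 over all. Windows with 5 CG or fewer made up 19.8% of the 86 (17 genes) and 31.0% of all, and the median GC content was 60.5% against 57.0%.

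At 12 weeks the summed level of the 125 genes was 386, 538 and 639 CPM in the R6/2 pools (lowest, median and highest) and 24.4, 34.8 and 47.6 CPM in wild types. In single R6/2 pools between 110 and 125 of the genes exceeded 0.5 CPM, against 14 to 38 in single wild-type pools. The pool with 110 was the one numbered 7. For 104 of the 125 every R6/2 pool lay above every wild-type pool, where 19.1% of protein-coding genes did so. edgeR called 120 of the 124 genes that passed its filter higher, against 19.0% of all genes tested. Both counts follow from the rule and nothing is read from them. In wild types near silent meant few reads more often than none. Over the 7 wild-type pools 123 genes had 4 or more counts, Gpr179 had 1 and Gm12695 had 0, with a median of 85. Among the 123, the ratio of the R6/2 to the wild-type mean ran from 4.59 for Tbkbp1 to 362 for Tecta, with a median of 10.7.

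**Figure D1:**
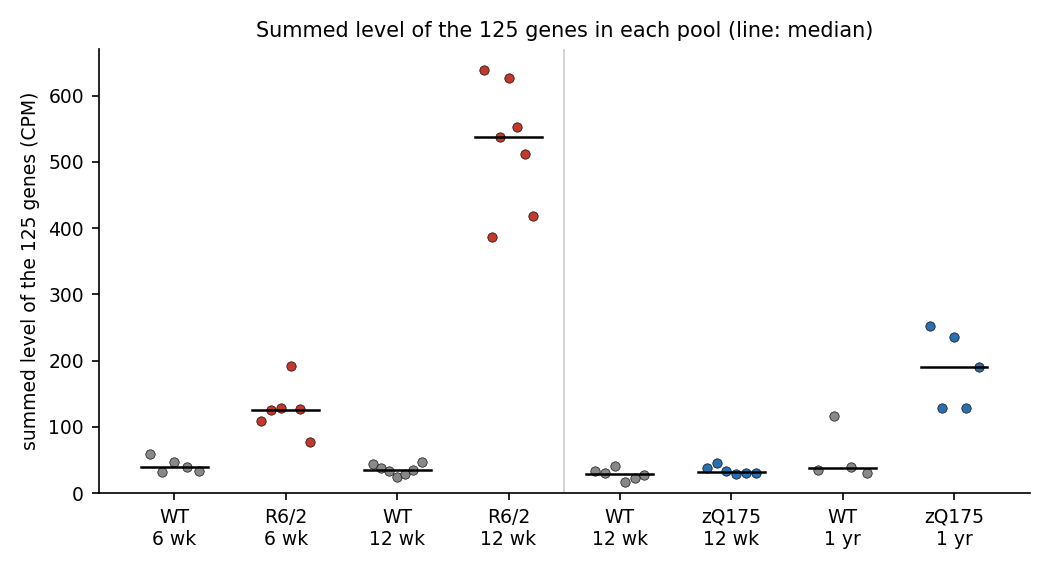
Summed CPM of the 125 genes in each of the 46 pools (points), by group on the horizontal axis, with the group median as a line. The 12-week R6/2 pools lie between 386 and 639 CPM, the 6-week R6/2 pools between 77.3 and 191, and 1 wild-type pool at 1 year reaches 117.

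The thresholds cut through a continuous range. Just inside the R6/2 threshold lay Cgn at 2.04, Gramd2 at 2.06 and Greb1 at 2.08 CPM, and just outside lay Ccdc177 at 1.98, Fkbp1b at 1.97 and Frmd7 at 1.95 CPM. Just inside the wild-type threshold lay Pnma2 at 0.498, Ak5 at 0.497 and Gal3st3 at 0.489 CPM, and just outside lay Ncmap at 0.504, Tenm1 at 0.512 and Sfrp5 at 0.514 CPM. Vat1l and Plce1, with 49.9 and 18.1 CPM in R6/2, were not taken because their wild-type means were 2.24 and 1.14 CPM. With wild types below 0.25 and R6/2 at or above 4 CPM only 11 genes would be left, and with wild types below 1 CPM there would be 314.

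The R6/2 pools differed among themselves at 12 weeks. The coefficient of variation of a gene over the 7 pools had a median of 35.8% and ran from 10.2% for Rai2 to 83.3% for Greb1. Rai2, a nuclear protein first described as induced by retinoic acid, had 4.03, 4.82 and 5.30 CPM (lowest, median and highest). Greb1, an estrogen-induced regulator, had 0.168 to 5.08 CPM. The pool numbered 2 was the lowest of the 7 for 44 genes, and the pool numbered 7 was the lowest for 41. In the latter Parp14 had 0.356 CPM against 5.33 to 13.6 in the other 6 pools, and Acacb 0.942 against 5.37 to 10.6. Mast1 and Stil were at 0 there, while Sox1 stood at 5.83 CPM, near the top of its range of 3.44 to 5.90. In that pool 110 genes exceeded 0.5 CPM, against 123 to 125 in the other 6.

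**Figure D2:**
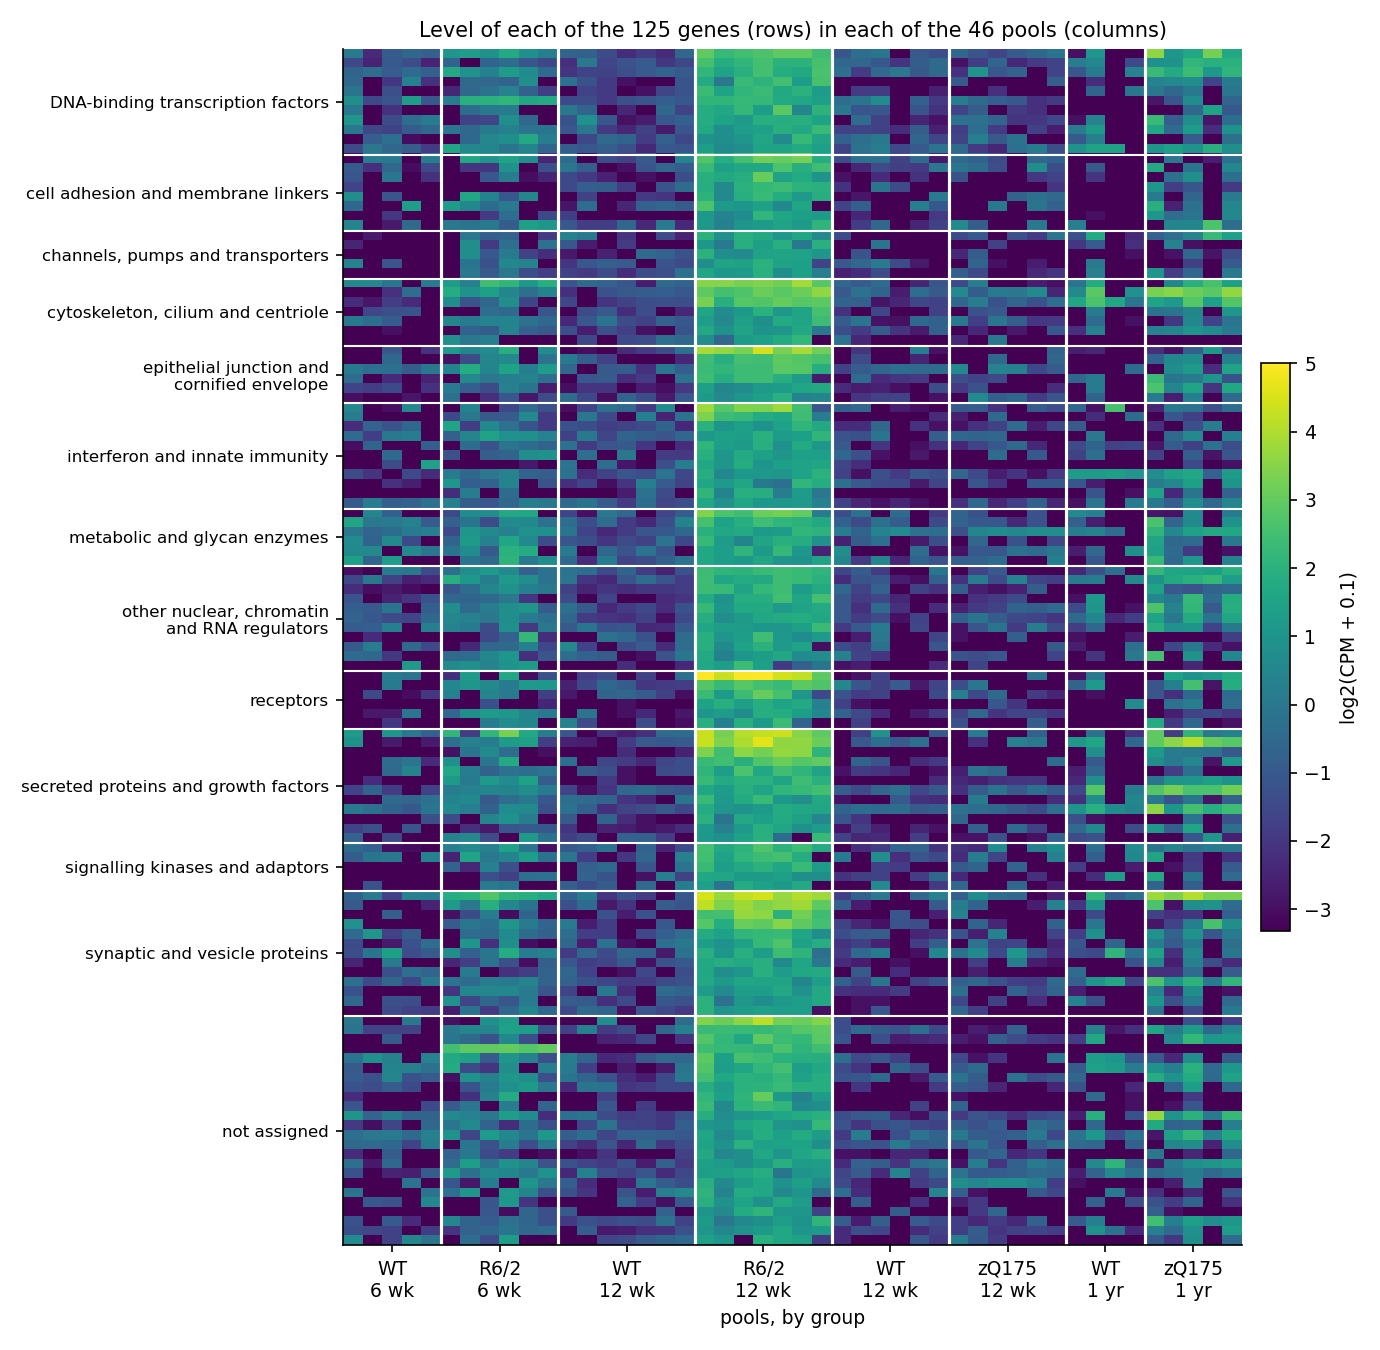
Level of each of the 125 genes (vertical axis, grouped by function) in each of the 46 pools (horizontal axis, by group) as log2(CPM + 0.1), from dark for low to bright for high, with values beyond the scale in its end colour. The 12-week R6/2 pools form a bright block, the 6-week R6/2 and 1-year zQ175 pools are intermediate, and the zQ175 pools at 12 weeks resemble their wild types.

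Gm12695 (ENSMUSG00000078639, chr4:96723647-96785186, GRCm38) stood apart from the other genes. It had 0 counts in all 33 libraries of mice without the R6/2 transgene, out of 1159099355 counts, which allows a level of up to 0.00259 CPM by counting error alone. In the 13 R6/2 libraries it had 3188 counts. The 12-week R6/2 pools had 5.26, 4.57, 4.58, 4.09, 6.08, 4.18 and 5.40 CPM, and the 6-week pools 5.64, 7.5, 7.80, 8.13, 6.85 and 7.95 CPM. The values of the 2 ages overlapped, and Gm12695 was the sole member with a higher mean at 6 than at 12 weeks. Set against a floor of 3 counts over each wild-type group, it was at least 499-fold higher at 6 weeks and at least 444-fold higher at 12 weeks. At 6 weeks, which the rule did not use, edgeR called it higher (adjusted p = 7.59e-06, higher in 6 of 6 pools), and it was called under all 17 settings tried. No other gene of any type had 0 counts in every library without the transgene and 20 or more in every R6/2 library.

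The nearest protein-coding genes did not share that pattern. On the side of lower coordinates Cyp2j5, 59.5 kb away and a cytochrome P450 like the next pair, was at 0 in all 8 groups. Cyp2j9, 132 kb away, had 63.8 against 30.3 CPM at 12 weeks (log2 change 0.70, adjusted p = 5.86e-06) and 41.2 against 29.1 CPM at 6 weeks (0.28, adjusted p = 0.286). Cyp2j6, 170 kb away, had 206 against 103 CPM at 12 weeks and 154 against 104 CPM at 6 weeks (0.35, adjusted p = 0.113). Both were expressed in wild types, and at 1 year they were also higher on average in zQ175, where Cyp2j6 had 141 against 65.9 CPM (0.94, adjusted p = 0.167). On the other side the nearest was Gm10192, 397.7 kb away and at 0 in all 8 groups.

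At 6 weeks the 125 genes were already above wild type as a set in R6/2 mice, at lower levels than at 12 weeks. The summed level was 77.3, 126 and 191 CPM in R6/2 pools (lowest, median and highest) and 32.0, 39.6 and 59.6 CPM in wild types, without overlap. The median gene stood at 26.1% of its 12-week R6/2 level. Of the 125, 97 had a mean of at least 0.5 CPM and 7 a mean of at least 2 CPM in R6/2, and 32 reached 0.5 CPM in the 6-week wild types. Over all 125 genes, with those at 0 in 1 group set to the bound that 3 counts give (11 genes), 113 had a log2 change above 0 (90.4% against 52.2% of all genes). Their median log2 change was 1.41, against 0.02 over all genes.

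Single genes were much less certain at that age. edgeR called 5 of the 125 higher and 0 lower, against 2.33% of all genes called higher, and 27 did not pass the filter on low counts. At an unadjusted p below 0.05, 23 were higher (against 8.58% of all genes) and 0 lower. DESeq2 called 14 higher (against 4.54%), limma voom 9 (against 2.37%) and a fit of all 8 groups 14 (against 2.37%). For 11 of the 125 every R6/2 pool lay above every wild-type pool, which is 8.80% and close to the 7.84% of protein-coding genes. These 11 were Gm12695, Clvs1, Il17b, Nsun7, Sox3, Odf3l2, St14, Il25, Tceal5, Isg15 and Ccdc148. The count was 21 without the R6/2 pool numbered 1 and 19 without the one numbered 6, which had the 2 lowest summed levels. Without the wild-type pool numbered 1, the highest of its group, edgeR called 8 genes. No share of all genes is given for these counts with a pool left out, and nothing is read from them.

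**Figure D3:**
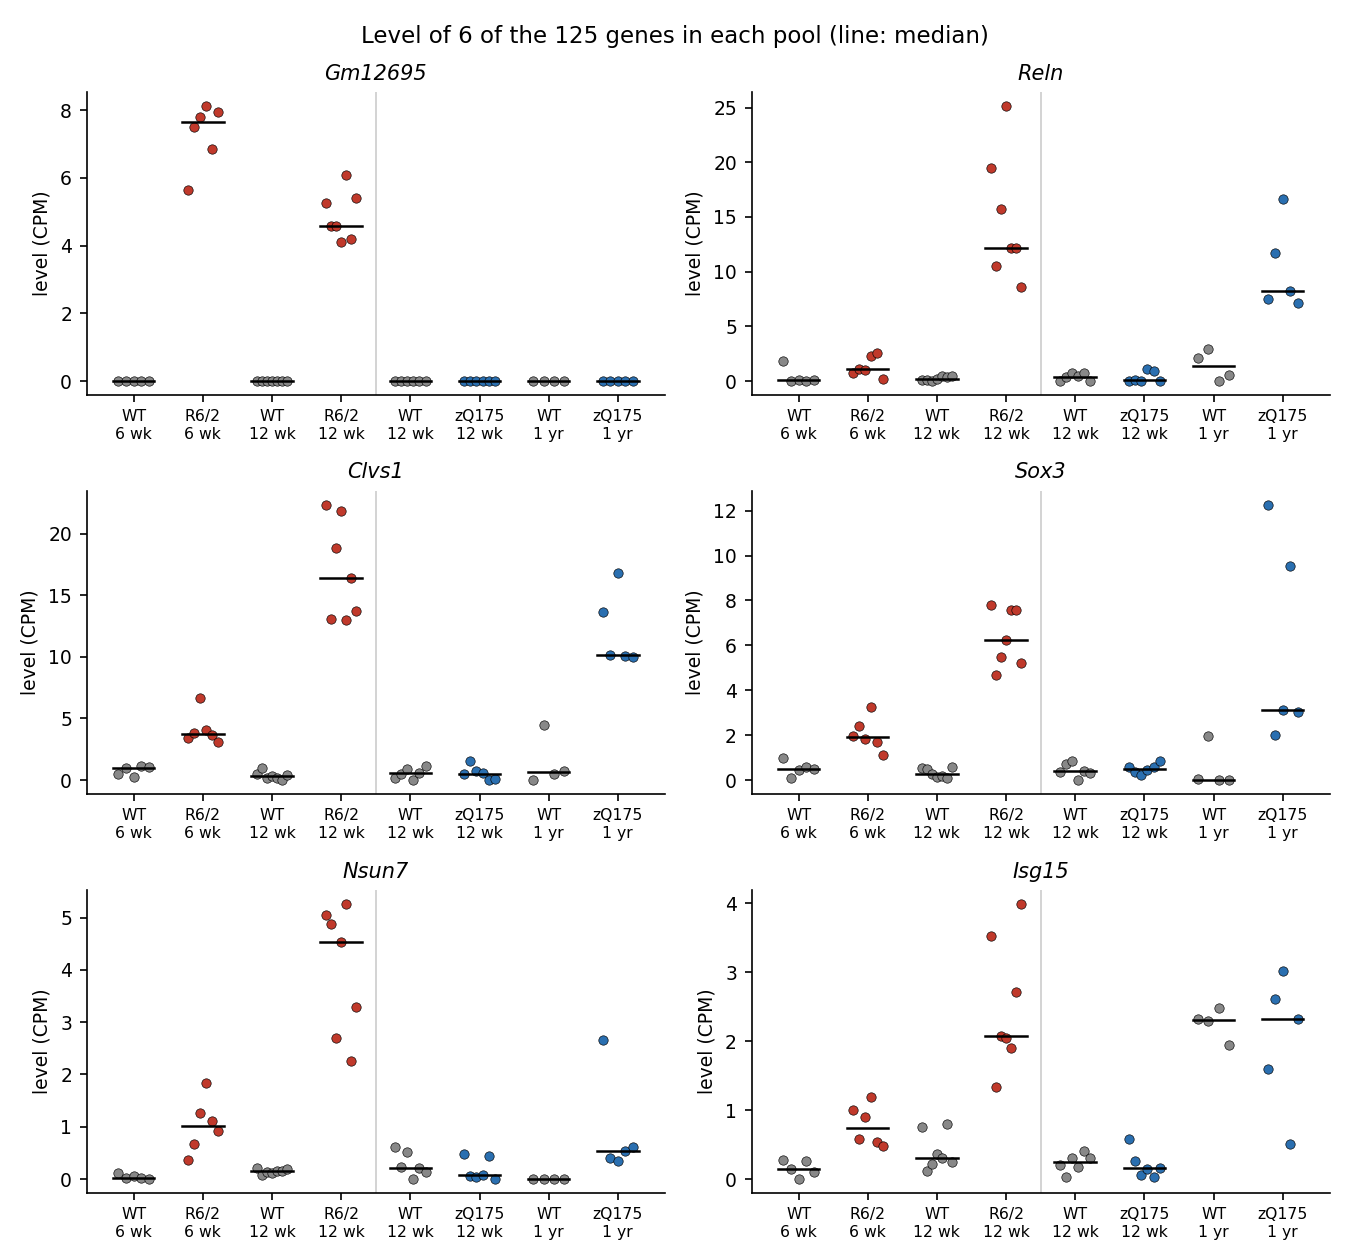
CPM per pool (points) of Gm12695, Reln, Clvs1, Sox3, Nsun7 and Isg15 in the 8 groups, 1 panel per gene, with the group median as a line. Gm12695 is at 0 outside R6/2, while Clvs1 and Reln are also high in all 5 zQ175 pools at 1 year, at 9.95 to 16.8 and 7.12 to 16.6 CPM.

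Besides Gm12695 the genes called at 6 weeks were Clvs1, Il17b, Nsun7 and Ccdc120. Clvs1 (clavesin, a lipid-binding protein of clathrin-coated vesicles in neurons, chr4:9269293-9451691) had 3.07, 3.77 and 6.63 CPM in R6/2 pools (lowest, median and highest) and 0.526, 0.990, 0.209, 1.13 and 1.09 CPM in wild types. Every R6/2 pool was above every wild type. The log2 change was 2.16 (SE 0.44, adjusted p = 0.0133). Clvs1 shares 30.4% of its exonic bases with Asph on the opposite strand, and the kit does not mark strand. Asph itself had 13.2 against 9.72 CPM (0.23, adjusted p = 0.663).

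Nsun7 (chr5:66259897-66298026) had 0.372, 1.02 and 1.83 CPM in R6/2 pools and 0.110, 0.0243, 0.0513, 0.0206 and 0 CPM in wild types. The groups did not overlap, and the log2 change was 4.38 (SE 0.82, adjusted p = 0.00886). Il17b, a cytokine of the interleukin-17 family, had 0.445, 1.82 and 2.61 CPM in R6/2 pools. Wild types had 0, 0.0973, 0, 0 and 0 CPM, below every R6/2 pool (log2 change 5.97, SE 1.08, adjusted p = 0.00709). An antisense gene, Gm38165, overlaps 14.5% of the exonic bases of Il17b.

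Ccdc120, a protein of the centriole, was the least stable of the 5. It had 0, 0.468 and 1.22 CPM in R6/2 pools (lowest, median and highest), and a single wild-type pool had reads, at 0.0256 CPM. The R6/2 pool at 0 overlaps the wild types. With 132 reads in R6/2 and 1 in wild types the ratio of levels was 110.0, with an exact 95% interval of 19.5 to 4390 for counting error only. The fitted log2 change was 5.85 (SE 1.29, adjusted p = 0.0201), but it passed in 4 of the 10 other settings that gave an adjusted p, with adjusted p between 0.00255 and 0.119. Leaving out any 1 pool, Il17b, Nsun7 and Clvs1 were called in all 11 cases. In the fit of all 8 groups Clvs1 was not called (log2 change 2.15, adjusted p = 0.0869).

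In zQ175 mice at 12 weeks no difference was detected. The summed level was 28.8, 32.3 and 46.2 CPM in zQ175 pools (lowest, median and highest) and 16.7, 29.6 and 41.3 CPM in wild types, and the ranges overlapped widely. Of the 125, 33 passed the filter on low counts. edgeR, DESeq2 and limma voom called 0, against 0.0487%, 2.09% and 0.0348% of all genes called higher. At an unadjusted p below 0.05 edgeR had 0 higher, against 6.78% of all genes, and 1 lower. Without the filter 4 of 122 members with reads were higher at that p, against 6.4% of all genes. They were Pcnx2 (log2 change 3.12, SE 0.77, adjusted p = 0.113 in that fit), Irx2, Nipal2 and Cgn. AW551984, Slfn9, Cdh15, Pnma2 and Stk32c were lower at that p. No gene had every zQ175 pool above every wild-type pool, where 1.0% of protein-coding genes did. Of 121 genes with a value 72 had a log2 change above 0 (59.5% against 50.8% of all genes), with a median log2 change of 0.21 against 0.01.

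At 1 year the genes were higher in zQ175 in sum, 1 wild-type pool came close to the lowest zQ175 pool, and edgeR called no single gene. The summed levels of the 5 zQ175 pools were 252, 129, 236, 128 and 191 CPM. The 4 wild-type pools had 35.1, 117, 40.1 and 30.6 CPM. The lowest zQ175 pool was thus above the highest wild-type pool by a small margin, and the wild-type pool at 117 CPM, numbered 3, was the highest of its group for 63 of the 125 genes. In zQ175 90 genes had a mean of at least 0.5 CPM and 29 a mean of at least 2 CPM, against 37 and 5 in wild types. Of 122 genes with a value 109 had a log2 change above 0 (89.3% against 51.6% of all genes), 18 of them set to a bound. Their median log2 change was 1.84, against 0.02 over all genes.

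edgeR called 0 of the 125 genes higher at 1 year, where it called 0.0% of all genes higher and 0.00669% in either direction. At an unadjusted p below 0.05, 16 were higher (against 6.08% of all genes) and 0 lower, and 45 did not pass the filter. DESeq2 called 8 (against 1.78%), limma voom 0 (against 0.0334%) and a fit of all 8 groups 16 (against 4.91%). Without the wild-type pool numbered 3 edgeR called Clvs1, Sox3 and Pcbd1. Every zQ175 pool lay above every wild-type pool for 12 genes, or 9.60%, against 4.23% of protein-coding genes. They were Clvs1, Reln, Odf3l2, Sox3, Sox1, Rai2, Bend5, Cxxc4, Nsun7, Gm42517, Irx2 and Fhit. The count was 31 without the wild-type pool numbered 3 and 27 without the zQ175 pool numbered 5. No share of all genes is given for these counts or for the edgeR calls without a pool, and nothing is read from them. Clvs1, Odf3l2, Sox3 and Nsun7 were on this 1-year list and on that of R6/2 at 6 weeks, which is 4 of 12 and 4 of 11 genes. The share of all protein-coding genes on both lists is not given, so the overlap is not read as a trait of the members.

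**Figure D4:**
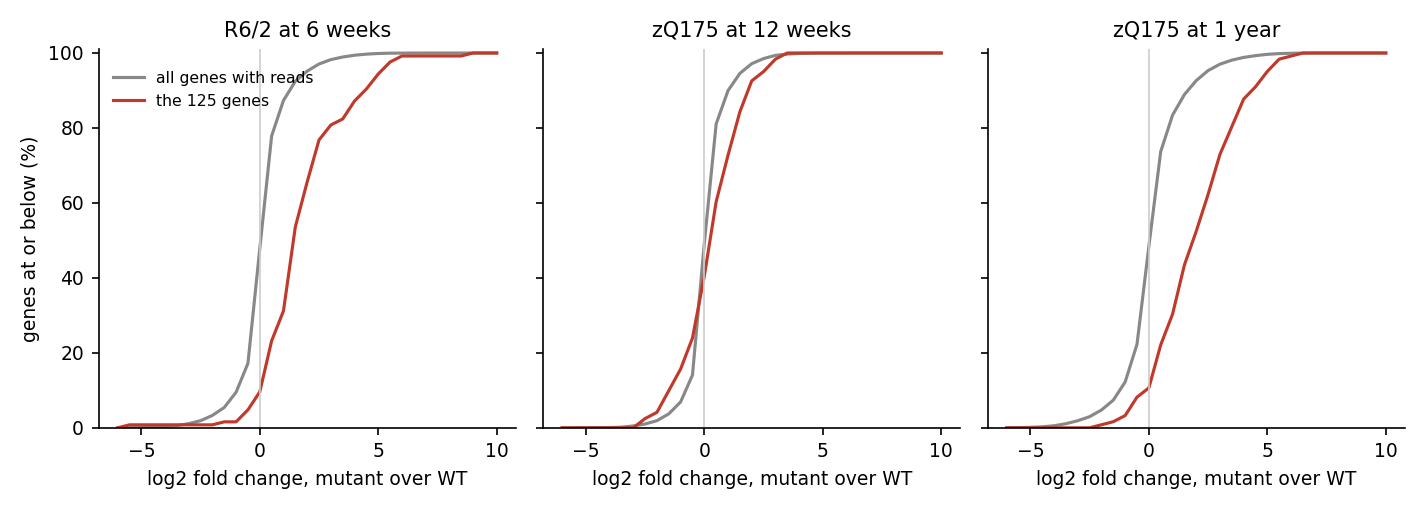
Cumulative percentage of genes (vertical axis) up to a given log2 change, mutant against wild type (horizontal axis), for the 125 genes and for all genes, in the 3 comparisons that did not choose the genes; genes at 0 in 1 group are at the bound of 3 counts. The curve of the 125 is shifted to the right in R6/2 at 6 weeks (median 1.41) and zQ175 at 1 year (1.84), and lies near that of all genes in zQ175 at 12 weeks (0.21).

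At 1 year the pool with the highest summed level in each group was also the highest in Pdgfra, but the other pools did not keep that order. The wild-type pool numbered 3, highest of the wild types in the summed level, was also highest in Pdgfra at 14.7 CPM, against 0.294 to 1.87 in the other 3. The zQ175 pool numbered 2, highest in the summed level, had 102 CPM of Pdgfra, against 4.69 to 20.4 in the other 4. Among those, the pool numbered 4 had a summed level of 236 and 14.4 CPM of Pdgfra. The pool numbered 5 had a summed level of 128 and 15.5 CPM of Pdgfra. The Pdgfra difference between groups was not called (log2 change 2.67, adjusted p = 0.433). The summed level of the 26 listed progenitor genes was 3516 to 6793 CPM in zQ175 and 2874 to 3678 in wild types. Its part in the result was not tested.

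Whether the change in R6/2 at 6 weeks differed from that in zQ175 at either age was tested directly. Line and age differ together in these contrasts, Pdgfra was lower in most pools of the zQ175 line, and these cannot be told apart. No gene of the 125 had a called difference between the change in R6/2 at 6 weeks and that in zQ175 at 12 weeks, against 0.336% of all genes with a larger change in R6/2. At an unadjusted p below 0.05, 13 were larger (against 5.99% of all genes) and 1 smaller in R6/2. DESeq2 called 1 larger, Gm12695 (against 1.19%), and limma voom 3, Gm12695, P2ry2 and Pnma2 (against 0.355%). Ccdc120 came closest with edgeR (log2 difference 7.34, SE 1.74, adjusted p = 0.0503). Set against zQ175 at 1 year, 0 were called, against 0.00599% of all genes, with 9 larger (against 4.38%) and 10 smaller at an unadjusted p below 0.05. DESeq2 called Gm12695 larger (against 0.245% of all genes) and Greb1 smaller, and limma voom called Gm12695 larger (against 0.024%). edgeR gave no usable error for Gm12695 in either contrast and could not call it, because it was at 0 in every zQ175 and wild-type pool.

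By function the 125 genes were placed in 12 classes, and 24 were left without one. A gene is counted as higher on average where its log2 change was above 0. The largest classes were synaptic and vesicle proteins (13 genes), secreted proteins and growth factors (12), and DNA-binding transcription factors, other nuclear regulators, and interferon and innate immunity genes (11 each). In R6/2 at 6 weeks the median log2 change was above 0 in all 12 classes, from 0.51 for metabolic and glycan enzymes to 4.73 for channels, pumps and transporters. The latter rests on few reads. Of its genes only Hcn3 passed the filter, and Atp2b3 and Fgf14 were set to the bound of 3 counts. In that class 0 genes were called by edgeR and 0 had pools without overlap, while the fit of all 8 groups called Atp2b3 and Fgf14. In zQ175 at 1 year it ran from 0.75 for signalling kinases and adaptors to 4.11 for cell adhesion and membrane linkers. In zQ175 at 12 weeks it lay between -0.44 and 1.13. The classes were drawn up with the members known, and the levels compared below are of 1 gene between groups, not per length between genes.

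**Figure D5:**
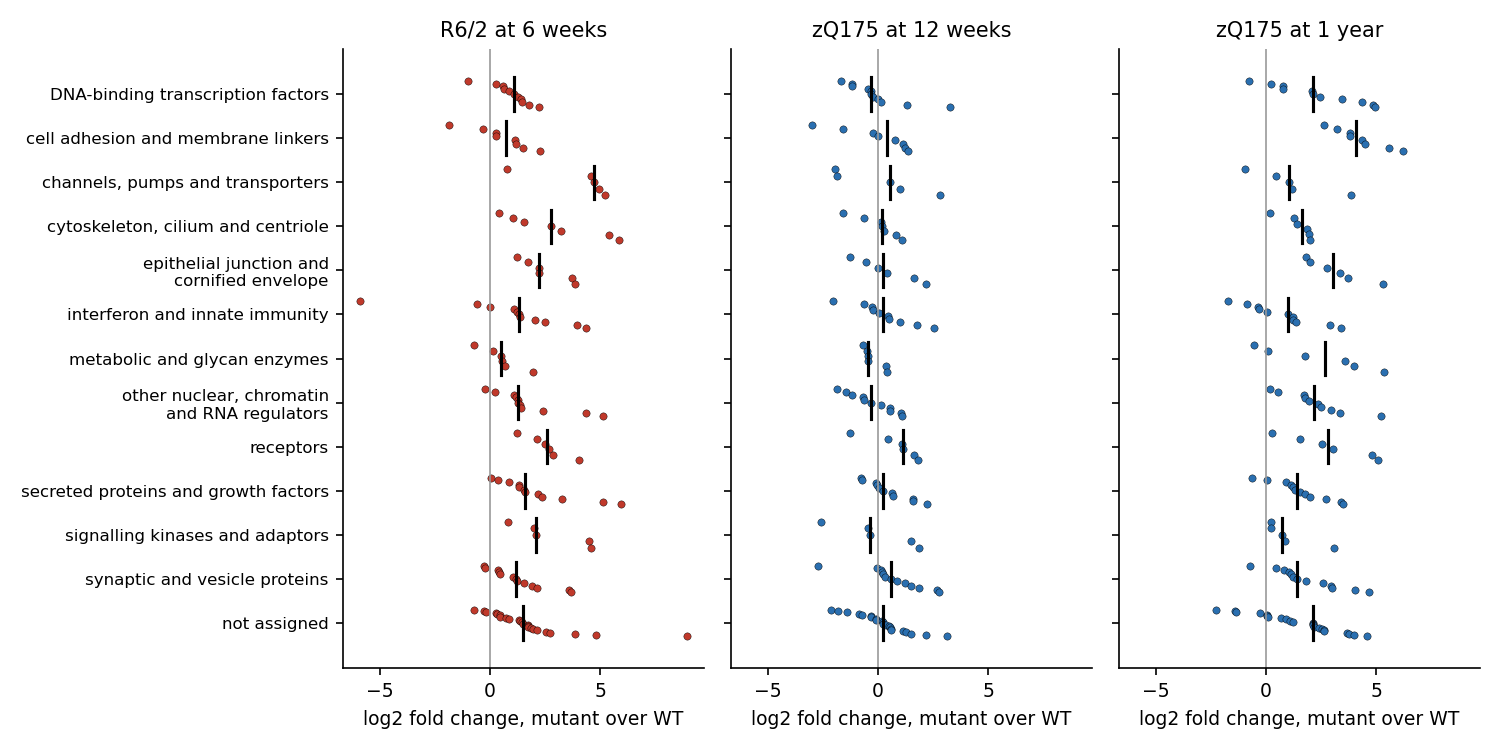
Log2 change of each gene (points), mutant against wild type, by function class on the vertical axis, in 3 panels for R6/2 at 6 weeks, zQ175 at 12 weeks and zQ175 at 1 year, with the class median as a black line and genes at 0 in 1 group at the bound of 3 counts. Medians of the 12 named classes lie above 0 in the first and last panels and on both sides of 0 in the middle one.

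Secreted proteins were higher on average for 12 of 12 genes in R6/2 at 6 weeks and 11 of 12 in zQ175 at 1 year, with median log2 changes of 1.59 and 1.43. Reln (chr5:21884454-22344702), whose product binds Vldlr and Lrp8 on migrating neurons, had 8.63, 12.2 and 25.2 CPM in 12-week R6/2 pools and 0, 0.170 and 0.434 CPM in wild types. At 1 year the zQ175 pools had 7.52, 11.7, 16.6, 8.24 and 7.12 CPM and the wild types 2.08, 2.90, 0 and 0.589 CPM. All zQ175 pools were above all wild types, yet the gene was not called by edgeR (log2 change 2.73, SE 0.85, adjusted p = 0.23), and over the alternatives the adjusted p ran from 0.0112 with DESeq2 to 0.535. At 6 weeks R6/2 pools had 0.195 to 2.56 CPM and wild types 1.79, 0, 0.0513, 0 and 0.0507 CPM. The single high wild-type pool, numbered 1, overlapped R6/2 (log2 change 1.61, adjusted p = 0.596), and without that pool the gene was called (5.38, adjusted p = 0.0238).

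Nptx1, a neuronal pentraxin that gathers glutamate receptors at synapses, had 7.56, 16.9 and 20.7 CPM in 12-week R6/2 pools and 0, 0.120 and 0.663 CPM in wild types. At 6 weeks it had 0.186, 3.70 and 9.79 CPM in R6/2 and 2.17, 0, 1.90, 0.905 and 0.482 CPM in wild types, which overlapped (log2 change 1.57, SE 0.95, adjusted p = 0.459). Tecta, a protein of the tectorial membrane of the inner ear, was at 0 in most wild-type pools. It had 4.20, 10.3 and 12.7 CPM in R6/2 at 12 weeks against at most 0.113 in wild types, and 0 CPM in every pool of the zQ175 line at 12 weeks. At 6 weeks R6/2 pools had 0 to 1.48 CPM and wild types 0 in all 5, so that the mean was at least 34.8-fold higher. At 1 year zQ175 pools had 2.21, 0.994, 0.902, 0.799 and 0.388 CPM and wild types 0, 1.58, 0 and 0 CPM. The wild-type pool at 1.58 was the one numbered 3.

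Il25, another interleukin-17 family cytokine, had 0.945 to 1.63 CPM in R6/2 at 6 weeks and 0 to 0.535 CPM in wild types, without overlap (log2 change 2.20, adjusted p = 0.142). At 1 year it had 5.98 to 9.44 CPM in zQ175, but the wild-type pool numbered 3 had 6.97 CPM and the groups overlapped. Il17b showed the same arrangement at 1 year, with 0.818, 1.89, 1.95, 2.54 and 1.78 CPM in zQ175 and 0.0919, 1.61, 0 and 0 CPM in wild types. Nrg1, a ligand of ErbB receptors, had 1.61, 3.18 and 4.83 CPM at 12 weeks in R6/2 and 0, 0.544 and 0.846 CPM in wild types. The 2 groups did not overlap for Nrg1 at that age, in the contrast that chose it. In R6/2 at 6 weeks its groups overlapped (log2 change 0.88, SE 0.99, adjusted p = 0.736). In zQ175 at 1 year they overlapped too (log2 change -0.66, SE 1.25, adjusted p = 0.898).

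All 6 receptors were higher on average in R6/2 at 6 weeks and in zQ175 at 1 year, with median log2 changes of 2.59 and 2.80. edgeR called none of them, and limma voom called Alk, a receptor tyrosine kinase, and P2ry2 higher in R6/2 at 6 weeks. Gucy2f (chrX:142081160-142196931), a membrane guanylate cyclase of photoreceptors, had 7.43, 21.8 and 38.1 CPM at 12 weeks in R6/2 and 0, 0.191 and 0.731 CPM in wild types. Its 6-week pools had 0, 0.210 and 3.09 CPM in R6/2 and 0, 0, 0.949, 0.822 and 0 CPM in wild types. The groups overlapped at 6 weeks, and the R6/2 mean was 0.958 CPM at that age and 24.5 CPM at 12 weeks. P2ry2, a receptor for extracellular nucleotides, had 4.76, 6.49 and 7.34 CPM at 12 weeks and 0.950, 1.66 and 2.19 CPM at 6 weeks in R6/2. Of the 6-week wild types 1 pool reached 0.975 CPM and overlapped (log2 change 2.87, SE 1.29, adjusted p = 0.279). Gpr179, an orphan receptor of retinal bipolar cells, had 2.77 ± 0.865 CPM at 12 weeks in R6/2 (SD, n = 7) and a single read in the wild types.

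Among the 5 channels, pumps and transporters, Atp2b3, a calcium pump of the plasma membrane, and Fgf14, an intracellular modulator of sodium channels, were at 0 in all 5 wild-type pools at 6 weeks. Their 6-week R6/2 means were at least 37.5-fold and 31.1-fold higher. Both were also low in R6/2, with at most 1.63 and 0.909 CPM in any pool and 0 in the lowest, so the groups overlapped. Hcn3, a pacemaker channel, had 0.229, 2.68 and 4.01 CPM in R6/2 at 12 weeks, and 17.1% of its exonic bases overlap Pklr on the opposite strand.

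Transcription factors included Sox3 and Sox1, SOXB1 factors of neural stem cells. Sox3 (chrX:60891366-60893430) had 4.70, 6.22 and 7.78 CPM in 12-week R6/2 pools and 0.103, 0.284 and 0.571 CPM in wild types. At 6 weeks it had 1.11, 1.90 and 3.27 CPM in R6/2 and 0.989, 0.0973, 0.436, 0.596 and 0.482 CPM in wild types, without overlap and short of the threshold (log2 change 1.76, SE 0.54, adjusted p = 0.0905). At 1 year zQ175 pools had 12.3, 1.99, 3.10, 9.51 and 3.01 CPM and wild types 0.0306, 1.95, 0 and 0 CPM. The lowest zQ175 and the highest wild-type pool were almost equal (3.48, SE 1.37, adjusted p = 0.36).

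Sox1 had 1.72, 1.83, 4.37, 3.81 and 3.91 CPM in zQ175 at 1 year and 1.04, 1.35, 0 and 0.265 CPM in wild types. Bend5, a BEN domain protein, had 4.74, 3.29, 5.13, 2.07 and 4.27 CPM in zQ175 and 0.367, 1.00, 0 and 1.18 CPM in wild types. Irx2, an Iroquois homeobox factor, had 1.19, 1.40, 1.58, 0.218 and 0.970 CPM in zQ175 and reads in 1 wild-type pool, at 0.115 CPM. In all 3 genes every zQ175 pool was above every wild type, and edgeR called none (adjusted p = 0.465, 0.353 and 0.202). DESeq2 called Irx2 and the fit of all 8 groups called Bend5. In zQ175 at 12 weeks the class had 4 of 11 genes higher and a median log2 change of -0.30. Dmrta1, a DM domain factor, differed from most of the set in its early level, 84.5% of the 12-week one, with 1.03, 3.53 and 4.35 CPM in R6/2 and 0.268 to 2.45 CPM in wild types at 6 weeks.

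Of the other 11 nuclear and RNA regulators 10 were higher on average in R6/2 at 6 weeks, and all 10 with a value were so in zQ175 at 1 year. Nsun7, called at 6 weeks, had 2.66, 0.404, 0.338, 0.545 and 0.615 CPM in zQ175 at 1 year and 0 in all 4 wild types, at least 37.9-fold higher. Rai2 had 4.58, 2.95, 2.71, 2.58 and 3.75 CPM in zQ175 and 0.0919, 0.316, 0.728 and 0 CPM in wild types. Its groups were far apart, although edgeR did not call it (log2 change 3.34, SE 1.07, adjusted p = 0.24). Cxxc4, a CXXC zinc finger protein that inhibits Wnt signalling, had 1.80 to 4.61 CPM in zQ175 and 0 to 1.41 CPM in wild types at 1 year. In R6/2 at 6 weeks it had 0.775, 1.84 and 3.63 CPM against 0.0617 to 0.900 CPM (log2 change 2.40, SE 0.71, adjusted p = 0.0799). Greb1 was at most 0.0846 CPM in zQ175 at 1 year, against 0.168 to 5.08 CPM in the 12-week R6/2 pools.

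Among the 13 synaptic and vesicle proteins, 11 were higher on average in R6/2 at 6 weeks, 11 in zQ175 at 12 weeks and 12 in zQ175 at 1 year, and the class held the called gene Clvs1. At 1 year Clvs1 had 13.7, 10.2, 16.8, 10.04 and 9.95 CPM in zQ175 and 0, 4.43, 0.479 and 0.749 CPM in wild types. All zQ175 pools were well above the highest wild type (log2 change 2.97, SE 0.92, adjusted p = 0.232). The zQ175 pools at 12 weeks had 0, 0.526 and 1.54 CPM (lowest, median and highest), like their wild types with 0, 0.536 and 1.14 CPM. Fam196b, of a family of inhibitory synapse proteins, had 7.58, 12.4 and 18.3 CPM in R6/2 at 12 weeks and 0, 1.14 and 3.69 CPM at 6 weeks (log2 change at 6 weeks 3.70, SE 1.38, adjusted p = 0.173). Rims1 and Erc2, scaffolds of the presynaptic active zone, had medians of 3.66 and 2.62 CPM in R6/2 at 12 weeks and of 0.510 and 0.566 CPM in wild types. At 6 weeks the pools of both overlapped wild type, with Erc2 at a median of 0.0704 CPM in R6/2.

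Adhesion molecules were the class with the highest 1-year median, which rests in part on genes set to the bound of 3 counts. The groups overlapped at 1 year in all 8 genes of the class. Pcdha7, Pcdha12 and Pcdhac2, clustered protocadherins of neuronal self-recognition, share 2860 exonic bases, so that their counts cannot be told apart with certainty. All 3 were at 0 in every wild-type pool at 1 year, with means of 1.17, 0.501 and 0.339 CPM in zQ175. None of the 3 passed the edgeR filter there, and at least 1 zQ175 pool was also at 0 for each. Cdh15, the cadherin of muscle satellite cells, had 2.00, 0.683, 0.818, 0 and 1.36 CPM in zQ175 and reads in 1 wild-type pool, at 0.0287 CPM (fitted log2 change 6.22, SE 1.69, adjusted p = 0.178). That pool had 1 read against 142 in zQ175, a ratio of levels of 118 with an exact 95% interval of 20.8 to 4680 for counting error only. The zQ175 pool at 0 made the groups overlap. In R6/2 at 6 weeks Cdh15 did not pass the filter, and Cdh18, another cadherin, was at 0 in all 6 R6/2 pools.

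A class of 6 genes encodes proteins best known from epithelia and skin. Ppl, periplakin of the cornified envelope, had 9.16, 12.5 and 21.6 CPM in 12-week R6/2 pools and 0, 0.113 and 0.754 CPM in wild types. At 6 weeks R6/2 pools had 0, 1.53 and 3.58 CPM (log2 change 3.87, SE 1.35, adjusted p = 0.142), and at 1 year zQ175 pools had 0.123, 0.0311, 0.479, 2.00 and 0.291 CPM. Krt1, a keratin of the epidermis, had 1.28, 2.27 and 3.21 CPM in R6/2 at 12 weeks and 6.21, 1.3, 2.82, 0.145 and 3.01 CPM in zQ175 at 1 year. The 1-year wild types had 0, 0.947, 0 and 0 CPM, overlapping zQ175. St14, the membrane protease matriptase, had 1.09, 1.81 and 3.42 CPM in R6/2 at 6 weeks and 0.452 to 0.961 CPM in wild types, without overlap (log2 change 1.22, SE 0.45, adjusted p = 0.168). All 6 genes of the class were higher on average in R6/2 at 6 weeks and in zQ175 at 1 year.

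Of 7 cytoskeletal and ciliary genes all were higher on average in R6/2 at 6 weeks. Spire2, an actin nucleator, had 7.10, 10.4 and 14.2 CPM in R6/2 at 12 weeks and 0.0600, 0.520 and 0.642 CPM in wild types. Odf3l2, related to an outer dense fibre protein of sperm tails, had 5.80, 7.60 and 12.2 CPM against 0, 0.389 and 0.462 CPM. At 1 year Odf3l2 had 9.89, 11.3, 8.55, 7.15 and 12.5 CPM in zQ175 and 1.41, 7.14, 0 and 1.74 CPM in wild types. The wild-type pool numbered 3 all but reached the lowest zQ175 pool. At 6 weeks the R6/2 pools had 0.745, 1.55 and 3.43 CPM and wild types 0 to 0.679 CPM (log2 change 3.23, SE 1.13, adjusted p = 0.144). Stil, a centriole duplication factor, was at 0 in every wild-type pool at 6 weeks and at 0 in all pools of the zQ175 line at 1 year.

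Metabolic enzymes included Acacb, the mitochondrial acetyl-CoA carboxylase, with 0.942, 7.84 and 10.6 CPM in R6/2 at 12 weeks and 0, 0.236 and 0.875 CPM in wild types. No difference was detected for Acacb at 1 year, with 0.497 ± 0.664 CPM in zQ175 and 0.639 ± 0.750 CPM in wild types at 1 year (SD, n = 5 and 4). Fhit, a dinucleotide hydrolase, had 1.37 to 4.21 CPM in zQ175 at 1 year and 0 to 1.23 CPM in wild types, without overlap (log2 change 1.79, SE 1.00, adjusted p = 0.544). Gal3st3, a sulfotransferase of glycans, had a log2 change below 0 at 6 weeks that did not pass the test. It had 0.282 to 1.47 CPM in R6/2 and 0.431 to 2.91 CPM in wild types (log2 change -0.72, adjusted p = 0.615). The 5 kinases and adaptors had all means above wild type in R6/2 at 6 weeks and in zQ175 at 1 year. edgeR called none of them, and the fit of all 8 groups called Sh3rf3 and Stk32c higher in R6/2 at 6 weeks.

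The class of unassigned function included AW551984, whose 12-week R6/2 pools had 8.47, 10.6 and 18 CPM and wild types 0, 0 and 1.61 CPM. At 6 weeks it had 0.692 ± 1.08 CPM in R6/2 and 0.357 ± 0.489 CPM in wild types (SD, n = 6 and 5), and in the zQ175 line at 1 year at most 0.338 CPM in any pool. AW551984 was thus high in 1 of the 8 groups. Ccdc148, a coiled-coil protein, had 0.746, 1.38 and 2.15 CPM in R6/2 at 6 weeks and 0 to 0.431 CPM in wild types, without overlap (log2 change 2.72, SE 0.84, adjusted p = 0.0924). At 1 year its medians were 0.839 CPM in zQ175 and 0.641 CPM in wild types.

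Interferon and innate immunity genes numbered 11 among the members, and the rule on symbols had removed none from the set. Interferon signals through STAT and IRF factors, which bind interferon response elements. The core of that element, GAAA repeated after any 2 bases, was searched on both strands and found in 4 of the 7 class members with a window (57.1%), in 1 of the 79 other members with one (1.27%, Scube3), and in 3.47% of all 16507 windows. Excerpts of 60 bases around the match are shown, 5′ to 3′ on the gene's strand, with the core in capitals. They lie at chr4:156200856-156200915 for Isg15, chr11:83020824-83020883 for Slfn8, chr11:82991841-82991900 for Slfn9 and chr7:104353344-104353403 for Trim12c, all on the minus strand.
Isg15: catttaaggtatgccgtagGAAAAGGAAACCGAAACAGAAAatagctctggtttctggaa
Slfn8: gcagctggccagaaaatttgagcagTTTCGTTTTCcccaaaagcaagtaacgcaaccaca
Slfn9: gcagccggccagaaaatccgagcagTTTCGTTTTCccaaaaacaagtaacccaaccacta
Trim12c: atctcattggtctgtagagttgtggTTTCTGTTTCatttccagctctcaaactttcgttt
The first match starts 78 bases before the transcript start in Isg15, 48 in Slfn8, 45 in Slfn9 and 29 in Trim12c, and the Isg15 window holds 3 overlapping matches. A match is a description of the letters and was not tested as a binding site.

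Isg15 (chr4:156199424-156200818), a ubiquitin-like protein induced by interferon, had 1.33, 2.07 and 4.00 CPM in R6/2 at 12 weeks and 0.109, 0.300 and 0.796 CPM in wild types. At 6 weeks it had 0.473, 0.738 and 1.19 CPM in R6/2 and 0.275, 0.146, 0, 0.267 and 0.101 CPM in wild types, without overlap (log2 change 2.06, SE 0.76, adjusted p = 0.17). At 1 year it was as high in wild types, with 2.33, 2.29, 2.49 and 1.94 CPM, as in zQ175, with 1.59, 2.61, 3.02, 0.508 and 2.33 CPM. Parp14, an ADP-ribosyltransferase of the interferon response, had 0.356, 10.2 and 13.6 CPM in R6/2 at 12 weeks and 0, 0.219 and 1.49 CPM in wild types. At 6 weeks no difference was detected, with 0.410 ± 0.480 CPM in R6/2 and 0.546 ± 0.736 CPM in wild types (SD, n = 6 and 5, adjusted p = 0.891). At 1 year a single wild-type pool, numbered 4, had 5.87 CPM of Parp14 and no zQ175 pool more than 0.932 CPM.

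Nlrc5, the transactivator of MHC class I genes, had 1.04, 4.56 and 10.5 CPM in R6/2 at 12 weeks and 0, 0.260 and 1.11 CPM in wild types. Mlkl, the executor of necroptosis, had 1.82, 2.63 and 4.22 CPM against 0.0914, 0.270 and 0.539 CPM, and Slfn8, a schlafen protein, 2.01, 2.49 and 3.58 CPM against 0, 0.163 and 0.876 CPM. Of the 11 genes of the class 9 were higher on average in R6/2 at 6 weeks, and Parp14 and Slfn9 were not. Slfn9 did not pass the edgeR filter, with at most 0.0466 CPM in R6/2 while 1 wild-type pool had 2.61 CPM. Of 50 listed interferon-stimulated genes, 5 of them members, 14 of 37 tested were called higher and 0 lower in R6/2 at 6 weeks, against 2.33% of all genes called higher. The list summed to 375 to 820 CPM in R6/2 and 188 to 226 CPM in wild types. At 1 year the sums were 647 to 1037 CPM in zQ175 and 448 to 743 CPM in wild types, with 0 of 34 called.

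The remaining promoter motifs were searched on both strands in the same windows. The E-box CAGCTG was in 18.6% of the 86 members' windows (16 genes) and 15.2% of all. The AP-1 site TGANTCA was in 6.98% and 7.04%, and the Sox core AACAAT in 6.98% and 9.35%. The TATA box TATAAA was in 3.49% of members and 12.8% of all, the Ets core GGAAGTG in 4.65% and 12.4%, and the CRE TGACGTCA in 0 members and 2.41% of all. None of these 6 motifs was in more than 18.6% of the members' windows, and the E-box alone was more frequent in them than in all windows.

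Few members were neighbours. Within 250 kb of each other lay Slfn9 and Slfn8 (10.3 kb apart on chromosome 11), Tbkbp1 and Gpr179 (180.6 kb, also chromosome 11), Isg15 and AW011738 (2.5 kb, chromosome 4), Spire2 and Dbndd1 (135.2 kb, chromosome 8), the 3 protocadherins, and Lgr5 with A930009A15Rik on opposite strands of 1 locus. Exons of 35 members overlap another gene, in 9 by at least 10% of the exonic bases. Klc3 shares 28.1% with Ercc2, Mast1 25.0% with Dnase2a and Tbc1d9 13.9% with Gm10645, all on the opposite strand. On the X chromosome lie 10 members, 8.0% of the 125 against 4.32% of protein-coding genes. Y-linked genes were at or below 1 CPM in 4 of the 7 R6/2 pools at 12 weeks and in 0 of the 7 wild-type pools. These are the pools that chose the genes. The part of this difference in the levels of the 125 genes, X-linked or not, was not tested.

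Genes of other cell types were read beside the members, since the sort can carry them along. At 12 weeks the 23 listed genes of neurons in general summed to 397 to 544 CPM in R6/2 and 204 to 234 in wild types. Of 16 tested, 7 were called higher and 1 lower, where 19.0% of all genes were called higher and 19.1% lower in that comparison. The list holds 1 member, Vsnl1, whose own rise at 12 weeks follows from the rule. Neuroblast genes summed to 23.6 to 41.6 against 4.59 to 10.3 CPM. Of 6 tested, 2 were called higher and 0 lower, with a median log2 change of 0.65. Dcx alone, 1 gene of that list, had 17.8 ± 3.42 against 2.06 ± 0.826 CPM (SD, n = 7 and 7). The 12 interneuron genes summed to 5.04 to 14.8 against 0.876 to 2.72 CPM, with 2 tested and 1 of them called higher. Slc5a7 alone, 1 of the 12, had 3.05 to 14.1 against 0.257 to 1.65 CPM. Genes of striatal projection neurons were lower in sum, 140 to 208 against 226 to 285 CPM, with 5 of 11 called higher and 3 lower. Astrocyte genes summed to 720 to 1133 against 540 to 878 CPM, with 2 of 14 called higher and 10 lower after scaling. Progenitor genes summed to 5380 to 6835 against 2946 to 3963 CPM (19 of 26 higher, 3 lower), and myelin genes to 68620 to 82030 against 133200 to 135300 CPM (22 of 24 lower). Microglial, endothelial and fibroblast lists had 0 genes called higher, and 5 of 14, 6 of 13 and 11 of 13 tested were called lower. The part of any of these lists in the level of the members was not tested.

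At 6 weeks the same lists moved less. Neuronal genes summed to 332 to 445 against 227 to 252 CPM, with Tubb3 alone called of 13, and neuroblast genes to 11 to 25.8 against 2.49 to 8.90 CPM, with 0 of 7 called. Myelin genes had 18 of 24 called lower, against 2.33% of all genes. Astrocyte genes summed to 457 to 653 against 368 to 690 CPM, with 0 of 14 called. In zQ175 at 1 year neuronal genes summed to 281 to 405 against 235 to 374 CPM and neuroblast genes to 5.30 to 26.6 against 3.56 to 9.44 CPM, with 0 called in either list. Astrocyte genes summed to 679 to 1012 against 536 to 695 CPM there, with 0 of 14 called. Their part in the members' levels at these ages was not tested.

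Genes of the machinery that keeps promoters silent were called in 12-week R6/2 mice in shares and directions that differed from list to list. Of 31 Polycomb subunits tested at 12 weeks in R6/2, 7 were called higher, such as Pcgf5 (log2 change 1.04) and Cbx8 (0.63), and 8 lower, such as Phc2 (-0.55), which is near the 19.0% of all genes called higher and 19.1% called lower. The methyltransferase Ezh2 had 8.86 ± 1.51 against 8.13 ± 2.03 CPM (log2 change -0.25 after TMM scaling, which turns its sign, SE 0.16, adjusted p = 0.234). Rest had 36.0 ± 2.47 against 26.5 ± 3.36 CPM, a log2 change of 0.08 after scaling (adjusted p = 0.549). Among 14 genes of DNA methylation 0 were called higher and 4 lower, with Dnmt3a at 81.9 ± 12.6 against 113 ± 11.4 CPM (log2 change -0.84, adjusted p = 7.9e-06) and Dnmt1 not called (0.22, adjusted p = 0.214). Of 28 genes of the REST complex and of H3K9 repression 5 were called higher, Suv39h2 among them (1.37), and 1 lower, Rcor2 (-1.20), against the same 19.0% and 19.1% of all genes. At 6 weeks edgeR called none of the 31 Polycomb, 14 DNA methylation and 28 REST and H3K9 genes, and at 12 weeks in zQ175 Dnmt3a was the only one called (-0.62, adjusted p = 0.0366).

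For Reln the other genes of its pathway were read in the same way. Of 15 listed at 12 weeks in R6/2, Reln included, 4 were called higher and 5 lower, against 19.0% and 19.1% of all genes. The rise of Reln itself in that contrast follows from the rule and nothing is read from it. The receptor Lrp8 had 16.5 ± 5.32 against 2.42 ± 1.15 CPM (log2 change 2.41, SE 0.29, adjusted p = 5.01e-06), whereas the receptor Vldlr was lower (-0.45, adjusted p = 0.000265) and the adaptor Dab1 was not called (-0.06, adjusted p = 0.814). At 6 weeks in R6/2 and at 1 year in zQ175 0 of the 15 were called.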

How the data were processed

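RNA of 46 libraries was measured by sequencing of polyadenylated RNA with a kit that does not mark strand. The deposited table holds the authors' expected counts for each gene, made with CASAVA, STAR 2.5.2b and RSEM 1.3.0, per the submitters' processing notes. The notes name a human build although the identifiers are those of mouse, and the mouse build is not given in the sources used here. Each of the 46 columns was assigned to a library by its name. Symbols, types and positions are from GENCODE M21 (GRCm38), in which 53706 of 53801 identifiers were found and 95 were not. Expected counts, 9.4% of them not whole, were rounded for the tests. Genes were filtered with filterByExpr, scaled by TMM and tested with edgeR 4.0.16 (R 4.3.3, robust quasi-likelihood, only the groups compared), and called at a Benjamini-Hochberg adjusted p below 0.05. Adjusted p and log2 changes for single genes are from these fits unless another tool is named. Alternatives were RLE factors, no filter, DESeq2 1.42.0, limma voom 3.58.1, all 8 groups in 1 fit, a replicate block, leaving out each pool, and other versions of the rule. Changes over all members come from fits without the filter, with genes at 0 in 1 group set to the bound of 3 counts over that group. No library was a duplicate of another (lowest chi-square per degree of freedom within a group 22.2). The steps were tested on simulated data. The members, gene lists and function classes were chosen with earlier results of these data known. Genes named are those with the highest 12-week R6/2 or lowest wild-type means, the called ones, the 4 highest of each function class, those nearest the thresholds or another member, called genes of the lists and a few by name. Other genes, chosen after their values were seen, are those whose pools did not overlap.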

Additional observations from a re-analysis of the deposited data

Results flagged for a closer look

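Within groups of 4 to 10 pools 5 values lay far from the rest of their group by Dixon's criterion, which chance meets in about 1 of 20 groups. The wild-type pool numbered 3 at 1 year had a summed level of 117 CPM and 4.43 CPM of Clvs1. The R6/2 pool numbered 3 at 6 weeks had 6.63 CPM of Clvs1. The zQ175 pool numbered 2 at 1 year had 2.66 CPM of Nsun7, and the wild-type pool numbered 4 at that age had 5.87 CPM of Parp14.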

How the results depend on the processing

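The set itself held 11 genes under the stricter and 314 under the looser thresholds, and 117 to 134 when each 12-week pool was left out. For R6/2 at 6 weeks the count of members called higher was 5 and became 14 with DESeq2, 14 with all 8 groups in 1 fit (with Slfn9 called lower), 9 with limma voom, 9 under the looser rule, 1 under the stricter rule and 4 to 8 when each pool was left out. With the replicate number as a block it was 1, Gm12695, while Il17b, Nsun7 and Clvs1 had adjusted p of 0.0621, 0.101 and 0.117 at log2 changes of 6.52, 4.48 and 2.26. The pools were taken to share only a number: deviations of same-numbered pools correlated between -0.133 and 0.126 in R6/2 at 6 weeks, -0.099 and 0.256 at 12 weeks, -0.168 and 0.186 in zQ175 at 12 weeks and -0.179 and 0.104 at 1 year, and the own number was best in 0 of 5, 3 of 7, 1 of 6 and 0 of 4 pairs. For zQ175 at 1 year the count of 0 became 8 with DESeq2, 16 with all 8 groups in 1 fit and 0 to 3 when each pool was left out, and for zQ175 at 12 weeks it was 0 to 0. Members with a larger change in R6/2 at 6 weeks than in zQ175 at 12 weeks numbered 1 with DESeq2, 1 with RLE factors, 2 with all 8 groups in 1 fit, 3 with limma voom, 1 under the looser rule and 0 to 1 when each pool was left out. Set against zQ175 at 1 year they numbered 1 with DESeq2, 1 with limma voom and 0 to 0 when each pool was left out. Genes called in either direction for R6/2 at 12 weeks numbered 5704, and 5167 to 7025 when each pool was left out. As alternatives chosen after seeing the data, members whose pools did not overlap numbered 11 to 21 at 6 weeks, 0 to 1 in zQ175 at 12 weeks and 12 to 31 at 1 year when each pool was left out, and 10, 0 and 11 on TMM-scaled CPM. Beside the members called or not overlapping with a pool left out, no share of all genes is given. The cause of these shifts was not tested. Of the alternatives for single named genes 125 kept direction and call, 10 lost the call and 5 gained it, and none reversed. Depth limits the low members: 27, 92 and 45 of the 125 did not pass the filter in the 3 comparisons.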
